A study of Arabidopsis thaliana with 210 samples.

Results

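The plastid genome of Arabidopsis thaliana was represented in the deposited count table, which lists 60886 features, by every feature ID that starts with ATCG. These are 4 IDs that also led the wells without a nucleus and 129 others, and all of them are described here, whether abundant or scarce. The table covers 210 wells, of which 208 received nuclei of Col-0 seedlings whose shoot apices were taken 7 days after germination from plants kept on soil in 16 h light and 8 h dark. The labels call the cell type of every well stem cells and the molecule nuclear RNA. Single nuclei were processed with Smart-seq2 as p1 (93 wells) and p2 (93 wells) and with Smart-seq3 as p1 (8 wells) and p2 (12 wells), and Smart-seq2 was also used for 1 bulk well of p1, 1 bulk well of p2 and 2 negative control wells of p2, which received no nucleus. The labels do not state what p1 and p2 stand for, and they name no plant, pool or sort. A bulk well is described as 50 nuclei, while its column name holds the number 10, so the size of the bulk pools is uncertain.

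Plastids keep a small circular genome that encodes part of the photosynthetic complexes, part of the plastid ribosome, a bacterial-type RNA polymerase, and ribosomal and transfer RNAs. That polymerase depends on sigma factors encoded in the nucleus, and a second, phage-type polymerase is nuclear-encoded as a whole. Plastid RNA is made and kept in an organelle outside the nucleus, and it is mostly not polyadenylated, whereas Smart-seq2 and Smart-seq3 start from an oligo-dT primer. Fewer plastids carried along with a nucleus and less RNA per plastid cannot be told apart in these counts.

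The IDs are reported by number. Neither the table nor the annotation at hand pairs them with gene names, and 0 of them matched a locus tag of that annotation. Only 6 were named, in notes that give them as the best protein match of a nuclear gene. These names are those of the notes and were not checked against another source. ATCG00660 and ATCG01310 were named there as ribosomal proteins L20 and L2 of the large ribosomal subunit, and ATCG00750 as ribosomal protein S11 of the small subunit. ATCG00670 was named as plastid-encoded CLP P, a proteolytic subunit of the Clp protease, ATCG00430 as photosystem II reaction center protein G, and ATCG00530 as a CemA-like proton extrusion protein. Levels are given as CPM, the counts of an ID per 1e6 counts on genes of the same well or group. No gene lengths were available for the IDs, so values of different IDs are shares of counts and not expression per length. Each group is 1 sample and its nuclei are not replicates, so no test was made. Intervals are exact 95% intervals and cover counting error only.

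Plastid IDs took 11.8% of the counts on genes in p1 Smart-seq2 nuclei and 17.3% in p2 Smart-seq2 nuclei, both summed over 93 nuclei. The share in a single nucleus had a median of 12.04% and ran from 2.89% to 20.8% in p1, and had a median of 18.2% and ran from 6.31% to 54.1% in p2. The ranges overlapped, and the highest nuclei belonged to p2. The bulk wells followed the same order, with 9.43% (95% interval 9.39 to 9.47) in p1 and 15.4% (15.4 to 15.5) in p2. Smart-seq3 nuclei held less, 6.89% in p1 (single nuclei 0.85% to 9.81%) and 9.83% in p2 (5.78% to 31.99%). The wells without a nucleus held the most, 48.8% ± 2.28 (SD, n = 2).

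**Figure D1:**
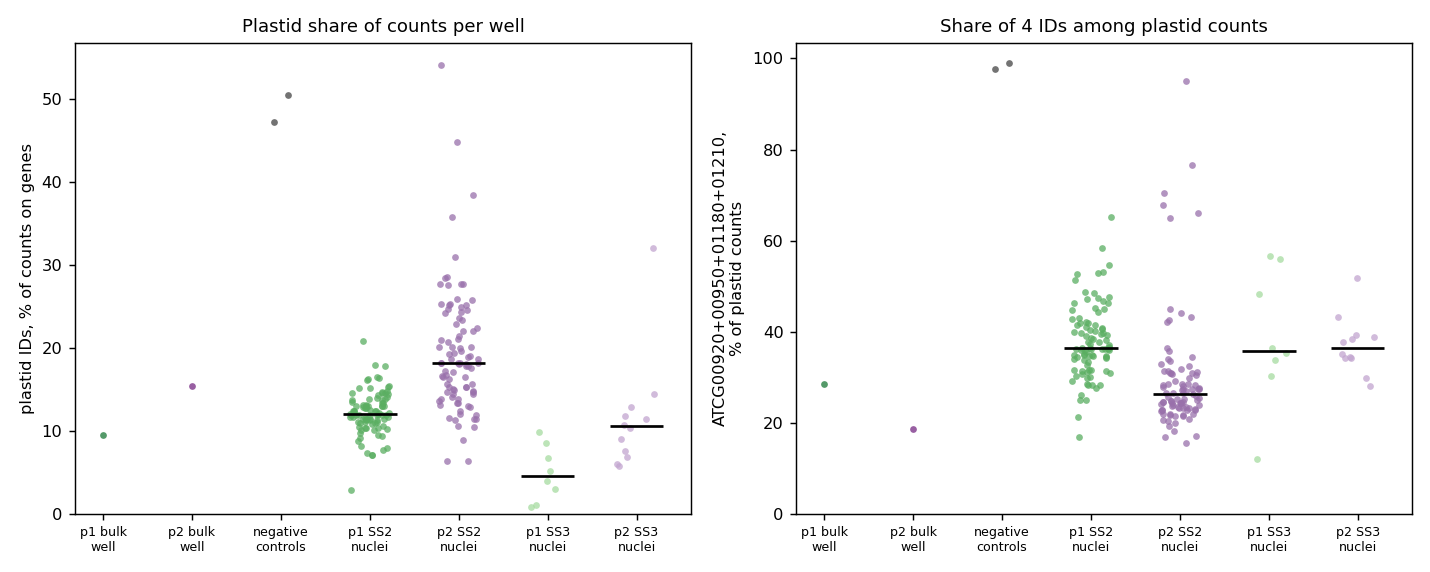
Each point is 1 well, and horizontal lines mark medians of groups with more than 2 wells; SS2 and SS3 stand for Smart-seq2 and Smart-seq3. The left panel gives the plastid share of counts on genes in percent, where the 2 negative control wells sit at 47.2% and 50.4% and only 1 nucleus lies at or above them. The right panel gives the share of plastid counts taken by ATCG00920, ATCG00950, ATCG01180 and ATCG01210, which is 97.8% and 99.1% in the negative control wells and 15.5% to 95.01% in p2 Smart-seq2 nuclei.

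The depth behind these shares differed widely. A p1 Smart-seq2 nucleus held 1362 to 8102382 counts on genes (median 1310185) and a p2 Smart-seq2 nucleus 153 to 1236901 (median 375146), against 34106 to 337249 and 92940 to 747658 in the p1 and p2 Smart-seq3 nuclei. The bulk wells held 1945890 and 1253317 counts, and the negative control wells 7953 and 8676. In p1, 36 Smart-seq2 nuclei stayed under 50000 counts, and in p2 12 did. Among the p2 nuclei these 12 had a summed plastid share of 24.1% against 17.3% in the other 81, with medians of 22.8% and 18.1%. The ranges overlapped, at 14.4% to 54.1% and 6.31% to 44.8%. The nucleus at 54.1% held only 3705 counts on genes. In p1 the 36 shallow nuclei (11.5%) and the 57 deeper ones (11.8%) were close. Mitochondrial IDs took 2.70% and 1.58% of counts in p1 and p2 Smart-seq2 nuclei, 0.43% and 0.22% in Smart-seq3 nuclei, and 29.6% in the negative control wells.

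In the wells without a nucleus, nearly all plastid counts lay on 4 IDs, which were singled out after their values were seen. ATCG01180 held 1592 and 1245 counts in the 2 wells, ATCG00950 held 1200 and 1278, ATCG01210 held 580 and 952, and ATCG00920 held 301 and 863. Together they made up 98.5% (95% interval 98.2 to 98.7) of the plastid counts there. All other 129 IDs together had 39 counts in one well and 83 in the other. Of those 83, 46 fell on ATCG00170, which had 2 counts in the other negative control well. Some count fell on 25 and 31 plastid IDs, of which 15 were met in both wells. The IDs ATMG00020 and ATMG01390, also singled out after their values were seen, did the same among mitochondrial counts, with 4916 of 4919.

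These 4 IDs were also abundant in the wells that held nuclei, but far less dominant. They took 36.9% of plastid counts in p1 Smart-seq2 nuclei (single nuclei 16.8% to 65.3%, median 36.4%), 25.3% in p2 Smart-seq2 nuclei (15.5% to 95.01%, median 26.4%), 35.7% and 38.7% in p1 and p2 Smart-seq3 nuclei, and 28.4% and 18.6% in the p1 and p2 bulk wells. No nucleus reached the share of the lower negative control well. The nuclei nearest to it were shallow ones of p2, where the share had a median of 53.5% in the 12 nuclei under 50000 counts and 24.9% in the other 81. The same split in p1 gave 37.3% and 36.3%.

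**Figure D2:**
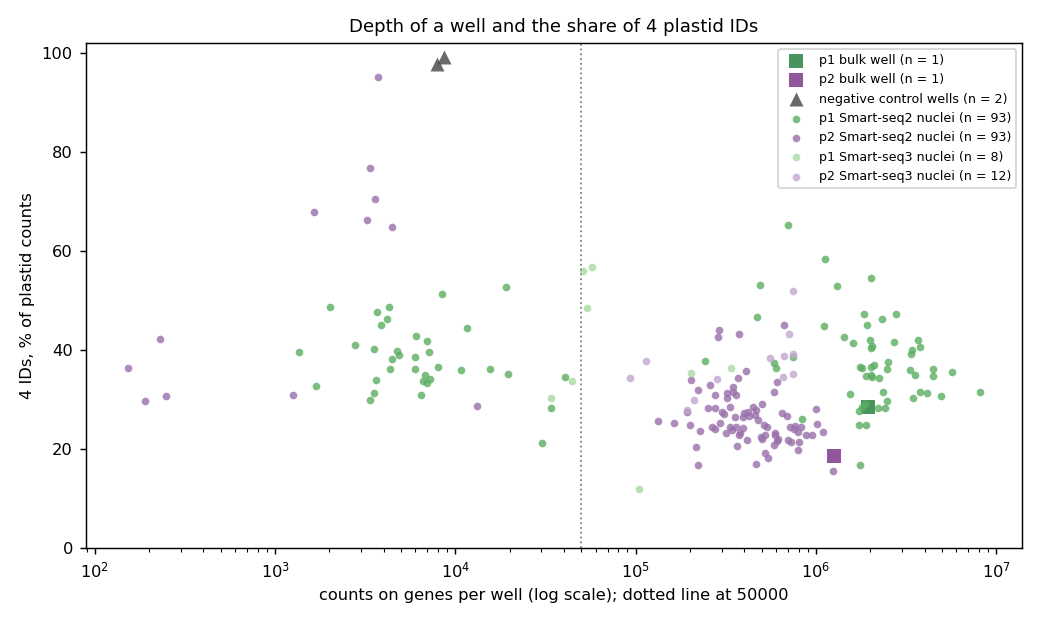
Each symbol is 1 well, placed by its counts on genes (log scale) and by the share of its plastid counts on ATCG00920, ATCG00950, ATCG01180 and ATCG01210; squares are bulk wells, triangles negative control wells and circles nuclei. The negative control wells lie above every nucleus, and the p2 Smart-seq2 nuclei above 45.1% are all to the left of the dotted line at 50000 counts.

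Because the 4 IDs were singled out for leading the negative control wells, the other 129 IDs were bound to be low there. A clearer separation from nuclei without the 4 is therefore not read as a result, and raw sums also carry the depth of a well. The summed count of the 129 IDs had a median of 99729 per p1 Smart-seq2 nucleus and 50584 per p2 Smart-seq2 nucleus. With Smart-seq3 it was 1674.5 per p1 nucleus and 24126.5 per p2 nucleus. All p1 nuclei exceeded the higher negative control well by this sum, and 4 of 93 p2 Smart-seq2 nuclei did not. By total plastid counts, 35 of 93 p1 and 12 of 93 p2 Smart-seq2 nuclei and 6 of 8 p1 Smart-seq3 nuclei were at or below the higher negative control well. Without the 4 IDs and the 2 mitochondrial IDs, the plastid share was 3.30% in the negative control wells, 7.98% and 13.7% in p1 and p2 Smart-seq2 nuclei, 4.56% and 6.27% in Smart-seq3 nuclei, and 7.07% and 13.03% in the bulk wells.

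The negative control wells were compared with the p2 Smart-seq2 nuclei, the group of the same p number and chemistry, ID by ID. Of the 83 IDs that could be compared, 6 were at least 4-fold higher in the negative control wells, where 16.1% of all 1151 features compared were. At least 4-fold lower were 41, where 12.4% of all features were, but nothing is read from this count: 42 of the 83 had no count in the negative control wells, and such an ID entered only if it was high enough in the nuclei. Of the 41 IDs with a count in both, 32 were at least 4-fold lower, where 15.2% of all such features were. Nothing is read from this contrast either, as a feature with 1 count there could be 4-fold lower only if abundant in the nuclei. The median nuclear gene stood at 5.74 CPM in these nuclei. ATCG00920 stood at 69998 against 3483 CPM and ATCG01210 at 92128 against 5296 CPM, ratios of 20.1-fold and 17.4-fold. ATCG00950 and ATCG01180 were 10.3-fold and 8.34-fold higher. The other 2 of the 6, ATCG00990 and ATCG01140, rested on 1 count each, with intervals that reached from below to above equality. The negative control wells held 16629 counts in all, so 1 count there was worth 60.1 CPM, and the 50 IDs not compared were out of reach at this depth.

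A plastid ID was found in far more nuclei than a typical nuclear gene. The median ID had at least 1 count in 72.04% of p1 and 87.1% of p2 Smart-seq2 nuclei, against 6.45% and 4.30% for the median of 29417 nuclear genes. In p1 38 IDs (28.6%) and in p2 48 IDs (36.1%) were found in at least 90% of nuclei, and 33 met this in both. Of nuclear genes, 0.85% and 0.126% were found that widely. At a minimum of 5 counts the p1 and p2 numbers of IDs were 16 and 21, against 22 and 13 of the 29417 nuclear genes. Among nuclei with at least 50000 counts they were 73 and 81 IDs. Across all 4 groups of nuclei, 7 IDs met it, namely ATCG00170, ATCG00280, ATCG00340, ATCG00350, ATCG00480, ATCG00800 and ATCG01130. Of these, ATCG00340 and ATCG00350 are treated below as a pair that shares reads. Nuclear genes were not counted for both Smart-seq2 groups together, for the deeper nuclei or for all 4 groups, so nothing is read from those numbers of IDs. A median nucleus held counts on 92 (p1) and 101 (p2) plastid IDs with Smart-seq2 and on 45.5 and 79.5 with Smart-seq3. With every nucleus thinned to 4200 counts the medians were 53, 72, 20 and 50 in the same order, from 82, 83, 8 and 12 nuclei, as 11 and 10 Smart-seq2 nuclei were too shallow.

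The counts of an ID were spread over more nuclei than those of a typical nuclear gene, again without a match for level. The 3 nuclei with most counts of an ID held 18.5% of its counts in p1 and 12.4% in p2 Smart-seq2 nuclei, as medians over IDs with at least 50 counts. For nuclear genes with at least 50 counts the same medians were 82.04% and 70.02%. Each plastid ID had a count in some well. ATCG01190 and ATCG01220 had the fewest, 17 counts each over 210 wells, and ATCG00910 had 23.

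A few IDs carried most of the counts. It took 6 IDs in p1 and 8 in p2 Smart-seq2 nuclei to reach 50% of all plastid counts, and 29 and 42 to reach 90%. Over the Smart-seq2 nuclei of p1 and p2 together ATCG01180 took 14.8%, ATCG00950 8.49%, ATCG00340 8.16%, ATCG01210 6.79% and ATCG00830 6.01% of plastid counts. ATCG00480, ATCG00470, ATCG00280, ATCG00920 and ATCG00270 followed with 3.90% to 3.16%. The order differed between the groups: after ATCG01180 and ATCG00950, which led in both, came ATCG01210 and ATCG00340 in p1 and ATCG00340 and ATCG00280 in p2, where ATCG01210 was the tenth. Of these 10 IDs, the 6 that are not among the 4 named above each had 2 to 7 counts in the pooled negative control wells. ATCG00340 stood at 9785 CPM in p1 and 13561 CPM in p2 Smart-seq2 nuclei, at 8405 and 15285 CPM in the bulk wells, and at 421 CPM in the negative control wells.

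**Figure D3:**
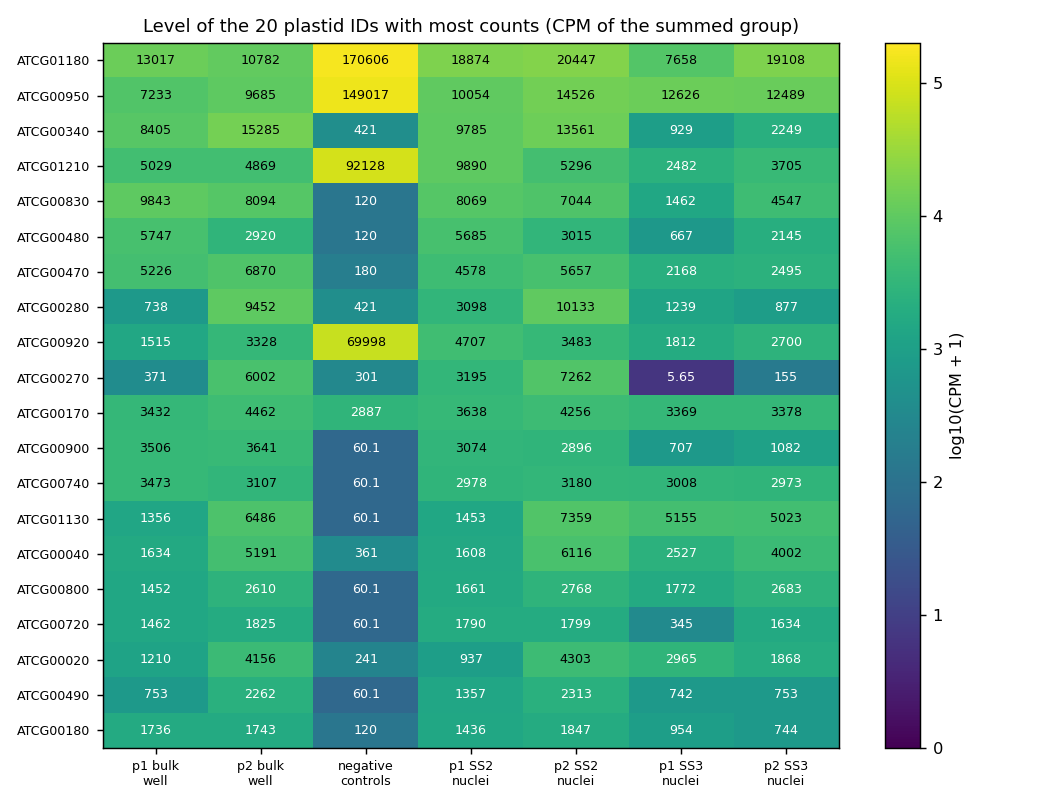
Rows are the 20 plastid IDs with most counts over the Smart-seq2 nuclei and columns the 7 groups; colour is log10(CPM + 1) and the printed number is the CPM of the summed group. The negative control column is bright at ATCG01180, ATCG00950, ATCG01210 and ATCG00920 only. ATCG00270 falls from 3195 CPM with Smart-seq2 to 5.65 CPM with Smart-seq3 in p1 nuclei, and from 7262 to 155 CPM in p2 nuclei.

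Several IDs were not counted independently of each other. Of the plastid values above 0, 19.7% were not whole numbers, and 64 IDs had such a value in at least 1 well. Where 2 features divide the same reads, their fractions add up to a whole number. By this rule (a tolerance of 0.002) ATCG00960 and ATCG01170 completed each other in 138 of 138 wells, ATCG00840 and ATCG01300 in 104 of 104, ATCG00905 and ATCG01230 in 93 of 93, and ATCG00830 and ATCG01310 in 100 of 115. In all 14 plastid pairs were treated as sharing reads, of which 11 completed each other in at least 50% of the wells with a fraction. The other 3 did so in fewer wells and were merged because a further feature completed their summed fraction. ATCG00920 was completed by ATCG01210 alone in 20 of 183 wells, ATCG00950 by ATCG01180 in 31 of 201, and ATCG00970 by ATCG01160 in 42 of 137. Some of them rested on few wells, such as ATCG00870 with ATCG01270 (7 wells).

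Reads were also divided with features outside the plastid genome. The summed fraction of ATCG00920 and ATCG01210 was completed by ATMG01390 in 144 of 168 wells, and that of ATCG00950 and ATCG01180 by ATMG00020 in 45 of 171. The 4 IDs that led the negative control wells were thus merged into 2 pairs, of which that of ATCG00950 and ATCG01180 rests on the fewer matching wells. ATCG00150 was completed in 100 of 100 wells by AT3G33000 and ATCG00020 in 65 of 65 by AT2G07688, both annotated as transcribed pseudogenes in the nucleus. ATCG00490 was completed in 22 of 39 wells by AT2G07732, a protein-coding nuclear gene.

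In some pairs the split between the members differed between groups far more than the sum. ATCG01240 had 0 counts in both bulk wells, although it had counts in p1 and p2 nuclei. The sum of ATCG00900 and ATCG01240 was 3506 CPM in the p1 bulk well and 3423 CPM in p1 Smart-seq2 nuclei, and 3641 and 3161 CPM in the p2 samples. The sum of ATCG00830 and ATCG01310, the latter named as ribosomal protein L2, was likewise 10031 and 9196 CPM in p1 and 8397 and 7616 CPM in p2. ATCG01310 alone had 188 CPM in bulk and 1127 CPM in nuclei of p1. Comparisons of IDs below therefore also give counts with the 14 pairs merged.

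The bulk wells were compared with the summed nuclei of the same p number. Of 117 IDs compared in p1, 1 was at least 4-fold higher and 11 at least 4-fold lower in the bulk well, where 8.69% and 11.6% of all 17502 features were. With the pairs merged, 1 of 103 was higher (ATCG00850, on 9 counts) and 3 were lower (ATCG00270, ATCG00280 and ATCG00630). In p2, 0 of 124 were higher and 7 lower, where 5.88% and 10.1% of 18024 features were, and 0 of 110 and 2 with the pairs merged (ATCG00240 and ATCG00930, both without a count in the bulk well). Among IDs with a count on both sides, 5 of 109 were lower in the p1 bulk well and 0 of 112 in the p2 bulk well, where 8.46% and 7.75% of all such features were. Over all IDs compared the median log2 ratio was −0.17 in both p1 and p2, and −0.06 in both for all features. Among those with a count on both sides it was −0.11 in both for plastid IDs, and 0.08 and 0.09 for all features. Among IDs whose lower quartile over the deeper nuclei was above 0, the bulk level lay within the quartiles for 84 of 89 in p2 and for 60 of 88 in p1. Over all features of that kind the shares were 75.7% and 78.9%. Of the IDs past 4-fold in the p1 bulk well, ATCG00270 and ATCG00280 had the most counts. For ATCG00270 the bulk level was 371 CPM and the level in p1 nuclei 3195 CPM (log2 ratio −3.11, interval −3.22 to −3.003), and ATCG00280 at 738 and 3098 CPM (−2.07, −2.15 to −1.995). Of the 57 deeper p1 nuclei, 53 lay above the bulk well for each of them, and 4 below. In p2 the same IDs were at 6002 and 9452 CPM in the bulk well and at 7262 and 10133 CPM in the nuclei.

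Between p1 and p2 many IDs differed. In the Smart-seq2 nuclei 50 of 128 IDs were at least 4-fold lower in p1, where 19.3% of all 20109 features were, and 0 were at least 4-fold higher, where 11.8% were. With the pairs merged, 47 of 114 were lower. The median log2 ratio was −1.50 for plastid IDs and −0.11 for all features. When scaled to plastid counts, so that the lower total in p1 does not enter, 31 of 128 were at least 4-fold lower and 3 at least 4-fold higher, where 15.5% and 17.7% of all features were. By this scaling the median log2 ratio was −0.95 for plastid IDs and 0.44 for all features, so the shares over all features were shifted as well. What p1 and p2 differ in is not stated, so a difference in handling and one in the plants cannot be told apart.

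Single nuclei showed the same shift. Among nuclei with at least 50000 counts (57 of p1, 81 of p2), every p1 nucleus lay below every p2 nucleus for 4 plastid IDs, which are named for this pattern after their values were seen. Of all 20109 features, 0.0199% showed this, which is 4 features, so they were these 4. Only a feature with a count in every deeper p2 nucleus could show it, and just 830 features had a p2 median above 0. The share over all features therefore makes the 4 look rarer than among features able to show the pattern. ATCG01020 ranged from 10.7 to 120.0 CPM in p1 (median 57.5) and from 212 to 4391 CPM in p2 (median 694). ATCG00130 ranged from 1.66 to 320 CPM in p1 (median 76.8) and from 341 to 2650 CPM in p2 (median 746). ATCG00220 and ATCG00630 had p1 medians of 10.9 and 23.8 CPM and p2 medians of 462 and 701 CPM. At least 90% of the p1 nuclei lay below the p2 median for 56 of 101 plastid IDs, and for 14% of all 830 features with a p2 median above 0.

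The p1 and p2 bulk wells, which share no well with the nuclei, were ordered in the same way. Of 88 IDs or merged pairs compared in both, 84 had the same sign in bulk wells and nuclei. In the nuclei 103 of 114 were below 0 on the log2 scale, and the median in the bulk wells was −1.67. Most were thus likely to share a sign, and signs were not counted over all features. An ID entered only with at least 50 counts over the bulk wells, which ATCG00630 reached through the p2 well (10 and 664 counts). IDs short of this are not among the 88. Of the 32 that were at least 4-fold lower in p1 nuclei, 32 were below 0 on the log2 scale in the bulk wells and 25 were at least 4-fold lower there. In the bulk wells 33 of the 88 were at least 4-fold lower in p1, against 10.4% of all 10569 features. Across the 88, Spearman's rho between the log2 ratios was 0.92, and across all 10560 features in both it was 0.38. These are points of the same wells, and the rho is given as a description. The p1 and p2 bulk levels were 50.9 and 533 CPM for ATCG01020 and 5.14 and 530 CPM for ATCG00630.

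**Figure D4:**
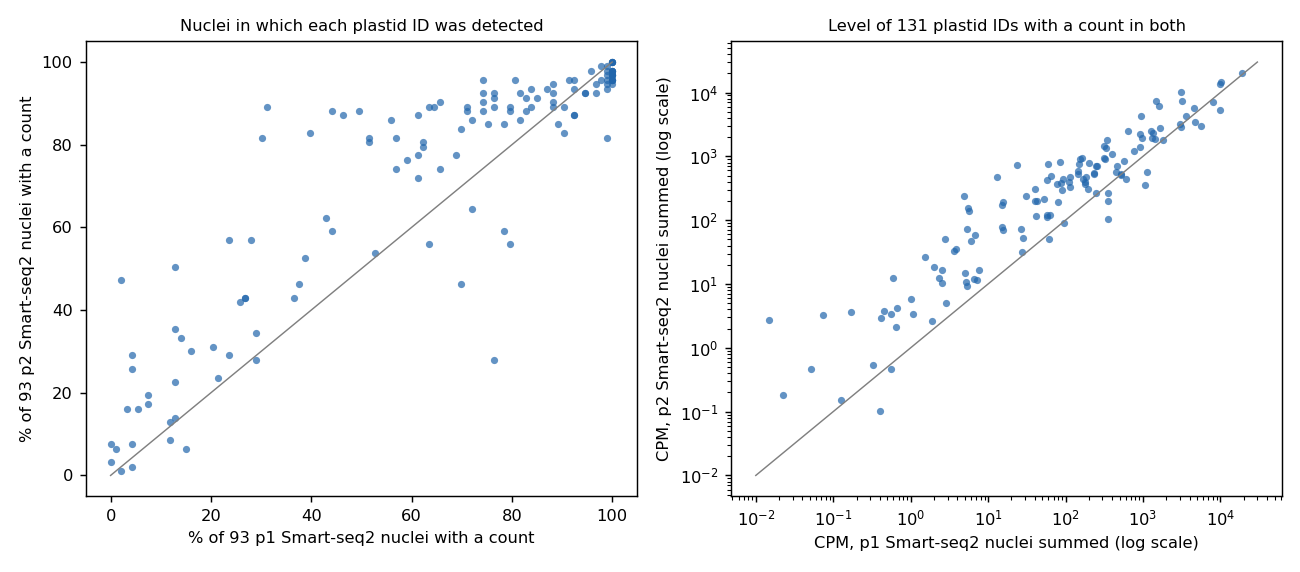
Each point is 1 plastid ID. The left panel gives the percent of 93 p1 (x axis) and 93 p2 (y axis) Smart-seq2 nuclei with a count, where 88 IDs lie above the diagonal and 40 below; the right panel gives the CPM of the summed nuclei on log axes for the 131 IDs with a count in both, where most points lie above the diagonal.

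The IDs named in the annotation notes did not all move together. ATCG00660 (ribosomal protein L20) was at 56.9 CPM in p1 and 419 CPM in p2 Smart-seq2 nuclei, a log2 ratio of −2.88 (−2.92 to −2.84), and all 57 deeper p1 nuclei lay below the p2 median. ATCG00430, called photosystem II reaction center protein G in the notes, was at 76.5 and 375 CPM (−2.29, −2.33 to −2.26). ATCG00530 (CemA-like) was at 170 and 449 CPM (−1.40, −1.43 to −1.38). ATCG00670 (CLP P) was nearly level, at 450 and 567 CPM (−0.33), and 32 of the 57 deeper p1 nuclei lay below the p2 median. ATCG00750 (ribosomal protein S11) went the other way, at 1063 CPM in p1 and 350 CPM in p2 (1.60, 1.58 to 1.63). Of the 57 deeper p1 nuclei, 56 lay above its p2 median of 298 CPM. The bulk wells kept these directions, with 53.4 and 295 CPM for ATCG00660 and 868 and 389 CPM for ATCG00750. ATCG00480, among the 10 most abundant, was also higher in p1, at 5685 against 3015 CPM in nuclei and 5747 against 2920 CPM in bulk wells. The pair of ATCG00920 and ATCG01210 was at 14597 and 8779 CPM in p1 and p2 nuclei but at 6544 and 8197 CPM in the bulk wells, the reverse order.

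Nuclear genes that serve the plastid had log2 ratios of p1 over p2 mostly above those of the plastid IDs. Of 19 genes of plastid transcription, which include the 6 sigma factors, the phage-type polymerase RPOTp and proteins associated with the bacterial-type polymerase such as PTAC12 and FLN1, 0 were at least 4-fold lower in p1 Smart-seq2 nuclei and 1 was at least 4-fold higher, with a median log2 ratio of 0.75. Over all features 19.3% were lower and 11.8% higher, with a median of −0.11. SIG1 was at 62.9 and 50.96 CPM, SIG3 at 55.6 and 74.9 CPM, and RPOTp at 146 and 47.3 CPM. A median member was found in 37.6% of p1 and 17.2% of p2 Smart-seq2 nuclei, and the list had 0 counts in the negative control wells. The 5 nuclear genes for partners of plastid-encoded subunits had a median log2 ratio of 0.80, with 0 past 4-fold in either direction. RBCS1A, a small subunit of Rubisco, was at 10118 CPM in p1 and 5891 CPM in p2. Of 11 cell type markers, 10 were found in more p1 than p2 Smart-seq2 nuclei, which are also the deeper ones, while by CPM 3 were higher in p1 and 8 in p2. The stem cell marker CLV3 was found in 22.6% and 6.45% of these nuclei and had 29.2 and 44.6 CPM. The mesophyll gene LHCB1.1 was found in all 93 and in 94.6% and had 2109 and 2445 CPM, and the mesophyll gene CA1 had 972 and 691 CPM. Their part in the plastid values was not tested.

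Most plastid IDs stood lower in Smart-seq3 than in Smart-seq2 nuclei, 73 of 113 in p1 and 115 of 125 in p2, and the median feature did too. With median of ratios scaling 58 of 113 IDs were lower in p1 and 96 of 125 in p2, so in p1 this depended on the scaling. In p1, 33 of 113 IDs were at least 4-fold lower with Smart-seq3 than with Smart-seq2 and 10 were at least 4-fold higher, where 39.5% and 13.6% of all 17022 features were. In p2, 43 of 125 were lower and 3 higher, where 56% and 9.5% of all 18570 features were. With the pairs merged, 27 were lower and 10 higher of 99 in p1, and 39 and 2 of 111 in p2. The median log2 ratio was −0.80 for plastid IDs and −1.33 for all features in p1, and −1.42 and −2.59 in p2. Among those with a count on both sides it was −0.54 and −0.95 in p1 and −1.21 and −0.63 in p2, so in p2 the order of plastid IDs and all features depended on features without a count. Of 112 IDs compared in both, 9 were at least 4-fold lower and 2 at least 4-fold higher in both, while 39 had opposite signs. Over all 15877 features compared in both, 20.7% were lower and 1.37% higher in both, and 42% had opposite signs.

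ATCG00270 had the lowest ratio in p1, with a log2 ratio of −9.14, and a ratio of −5.55 in p2, where ATCG00110 had the lowest at −7.00 (7 counts with Smart-seq3). ATCG00270 had a count in all 93 p1 and in 90 of 93 p2 Smart-seq2 nuclei, but in 3 of 8 p1 and 3 of 12 p2 Smart-seq3 nuclei. Its level was 5.65 CPM (interval 1.83 to 13.2) with Smart-seq3 against 3195 CPM with Smart-seq2 in p1, and 155 against 7262 CPM in p2. The neighbouring number ATCG00280 was at 1239 against 3098 CPM in p1 and at 877 against 10133 CPM in p2, and it was found in 8 of 8 and 11 of 12 Smart-seq3 nuclei. For ATCG00740 the sums were nearly level, at 3008 and 2978 CPM in p1 and 2973 and 3180 CPM in p2. Single p1 Smart-seq3 nuclei ran from 0 to 9024 CPM (median 1949), the widest spread of an ID in that group at 1000 plastid counts, and single p2 Smart-seq3 nuclei from 1109 to 12257 CPM (median 3095). ATCG00170 was at 3369 and 3638 CPM in p1 and at 3378 and 4256 CPM in p2.

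The IDs counted as higher with Smart-seq3 were mostly scarce. ATCG00400 was higher in both, at 30.5 against 0.41 CPM in p1 (27 counts in 4 of 8 nuclei) and at 21.4 against 2.95 CPM in p2 (122 counts in 10 of 12 nuclei). In p1, 3 of the 10 IDs counted as higher had all their Smart-seq3 counts in 1 nucleus. ATCG01020, which separated p1 from p2 with Smart-seq2, was at 836 CPM in p1 Smart-seq3 nuclei (740 counts in 6 of 8 nuclei) and at 717 CPM in p2 Smart-seq3 nuclei. Its Smart-seq2 levels were 59.3 and 745 CPM. In the pair of ATCG00830 and ATCG01310 the sum was level in p2, at 7652 with Smart-seq3 and 7616 CPM with Smart-seq2. Its division was not, with ATCG01310 at 3106 against 572 CPM.

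**Figure D5:**
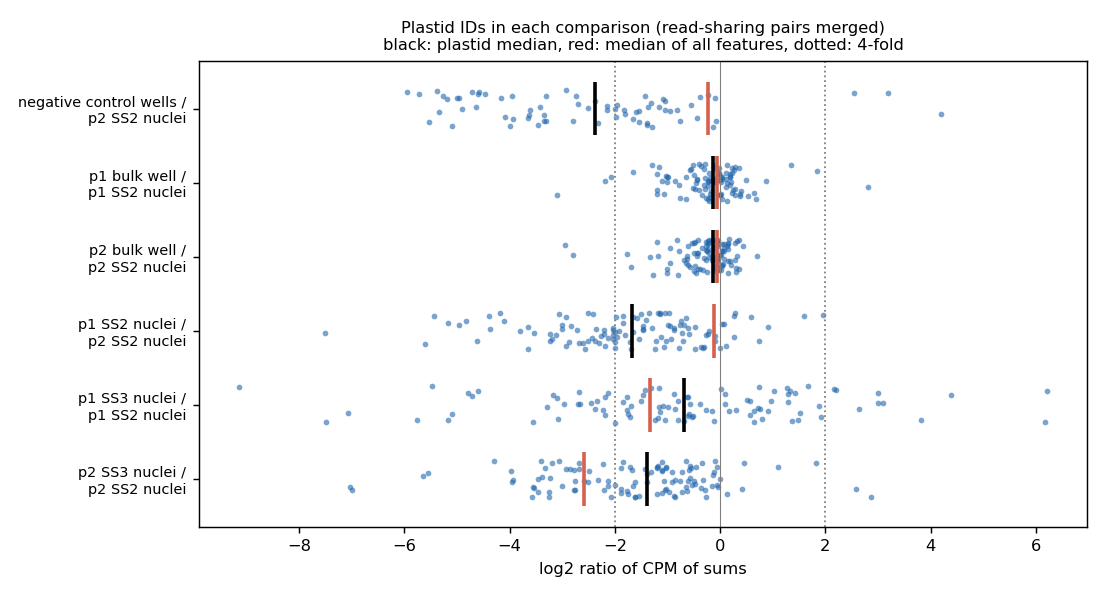
Each point is 1 plastid ID or merged pair, placed by the log2 ratio of CPM of the sums in each of 6 comparisons; SS2 and SS3 stand for Smart-seq2 and Smart-seq3. Black lines are the medians of plastid IDs, red lines those of all features, and dotted lines mark 4-fold, and an ID without a count in one group is drawn at its bound; most points of p1 against p2 lie to the left of the red line.

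Between nuclei of 1 group, plastid composition varied more for some IDs than for others. Nuclei were thinned to 1000 plastid counts, which kept 67 of 93 p1 and 84 of 93 p2 Smart-seq2 nuclei. ATCG00820 varied least, with a variance 1.51 times its mean in p1 and 1.82 times in p2, and its share ran from 0.1% to 1.4% and from 0.2% to 1.9% of plastid counts. The median over IDs that averaged at least 0.5% was 3.94 in p1 and 3.60 in p2. ATCG01310 varied most in p1 (25.96 times its mean, 0 to 6.6% of plastid counts) and ATCG00920 in p2 (54.3 times, 0.2% to 31.1%). Both belong to pairs that share reads. The p2 nuclei kept here included shallow nucleus 88, with 3705 counts on genes, 54.1% of them plastid and 35.4% mitochondrial. In nucleus 88, 95.01% of plastid counts lay on the IDs that led the negative control wells. Among the 81 deeper p2 nuclei, ATCG00920 did not exceed 10266 CPM. The p2 value may therefore rest on shallow nuclei, and the spread without them was not tested. ATCG01180 was the leading ID in 49 of the 67 p1 and 55 of the 84 p2 nuclei.

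Across nuclei the plastid share was weakly related to the mitochondrial share, with Spearman's rho 0.39 over 93 p1 and 0.29 over 93 p2 Smart-seq2 nuclei. Both shares have the same total as denominator, and nuclei of 1 sample are not replicates. Without the 4 plastid and 2 mitochondrial IDs the rho was 0.25 in p1 and −0.06 in p2. The plastid share and the total count had a rho of −0.02 in p1 and −0.43 in p2.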

How the data were processed

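The deposited table holds estimated counts per feature (expected counts, not whole for some features) for 210 wells; 133 of its IDs start with ATCG. Per the submitters' processing notes the genome build was TAIR10 and DESeq2 was used; aligner, counter and strand setting are not given in the sources used here. Per the labels' protocols, wells received 0, 1 or 50 nuclei and were processed with Smart-seq2 or Smart-seq3. Deposited values were rounded to whole counts. Totals and CPM were taken over nuclear, plastid and mitochondrial gene IDs, leaving out transposable elements and the reporter. Python 3.11.15 with pandas 2.3.3 and scipy 1.17.1 was used.

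Ratios are log2 ratios of CPM of summed groups, for features with at least 50 counts over both sums. A sum of 0 entered with 3 counts, and the ratio is then a bound. Such a feature was kept only where its floor lay below the other group's level, so it can only fall on the side of the group at 0, and features with at most 3 counts on both sides were left out. A feature past 4-fold counted as called. No test was possible with 1 sample a group. Shares carry exact Clopper-Pearson 95% intervals, sums exact Poisson ones and ratios exact binomial ones. Without molecular identifiers, these cover counting error only. The ratio and scaling steps were tested on simulated data with known changes.

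Alternatives were other scalings (counts on nuclear genes, edgeR 4.0.16 TMM, DESeq2 1.42.0 median of ratios), equal weight per well, other minimum counts, deeper nuclei only and leaving out a negative control well. Members and gene lists were chosen with earlier results of these data known. Genes were to be named by symbol, by being among the 10 most counted, and by the highest and lowest ratios. As IDs could not be paired with symbols, role lists, sequence features, per-length levels and sequences are not used here.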

Additional observations from a re-analysis of the deposited data

Results flagged for a closer look

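In the 8 p1 Smart-seq3 nuclei, the only group of a size at which single outlying samples were looked for, 16 values were examined. In 3 of them 1 nucleus was flagged as far from the rest. Chance alone marks about 1 in 20 where values are spread normally, and values of scarce IDs are not. ATCG00470 reached 4086 CPM in nucleus 6, with the next nucleus at 1673 CPM. ATCG00280 reached 3888 CPM in nucleus 8, with the next at 1348 CPM. ATCG00270 reached 45.2 CPM in nucleus 5, with the next at 19.2 CPM, in a group where most nuclei had no count of it. Nucleus 5 held 44215 counts on genes, so both values rest on very few counts and little is read from this flag.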

How the results depend on the processing

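No paired analysis was possible because the results come from no test and each group is 1 sample. Of 173 alternative values for 41 results, 122 stayed close to the reported value, 50 moved and 1 changed sign. The role lists, the alternatives without IDs annotated as ribosomal RNA and the sequence features were not run, as the IDs could not be paired with gene names. Whether the 6 IDs removed in an alternative are ribosomal RNA was therefore not settled here. The merged pairs, the scaling by plastid counts, the limit to features with a count in both groups and the removal of 6 IDs were chosen after seeing the data. For the values that moved, the cause was not tested.

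With equal weight per well the plastid share was 12.2%, 19.4%, 4.87% and 11.6% in p1 and p2 Smart-seq2 and p1 and p2 Smart-seq3 nuclei, and from 50000 counts upward it was 7.24% in p1 Smart-seq3 nuclei. Without the 4 plastid and 2 mitochondrial IDs it was 7.07% and 13.03% in the bulk wells, 3.30% in the negative control wells, and 7.98%, 13.7%, 4.56% and 6.27% in the nuclei. In the negative control wells 18 IDs reached 100 CPM, 41 with scaling by nuclear counts, and 25 to 31 with 1 well left out. IDs found in 90% of nuclei numbered 16, 21 and 1 (p1 and p2 Smart-seq2, p1 Smart-seq3) at a minimum of 5 counts. They numbered 73, 81 and 17 in deeper nuclei, and 0 and 19 in thinned p1 and p2 Smart-seq3 nuclei. The share of the 4 IDs in deeper p2 Smart-seq2 nuclei was 25.3%.

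For negative control wells against nuclei, 3 were higher with pairs merged and 2 with plastid scaling. Lower were 21 with nuclear scaling, 69 with plastid scaling, and 26 to 27 with 1 well left out. With a count in both groups, 5 were lower in the p1 and 0 in the p2 bulk well. For the p1 bulk well 3 were higher with plastid scaling and 3 lower with pairs merged. For the p2 bulk well 2 were higher at a minimum of 1 count and 2 lower with pairs merged. For p1 against p2 nuclei, 1 was higher with TMM, 1 with median of ratios and 3 with plastid scaling, where 31 were lower. For Smart-seq3 in p1, 18 were higher and 21 lower with median of ratios, and 21 higher and 20 lower with plastid scaling. For Smart-seq3 in p2, 1 was higher with equal weight and 6 at a minimum of 1 count, and 28 were lower with plastid scaling. Median of ratios shifted all log2 ratios by 0.68 and 0.53 in the Smart-seq3 comparisons and by −0.49 in that of the negative control wells; TMM shifted them by 0.25, 0.14 and −0.53. The rho of plastid and mitochondrial share was 0.25 in p1 and -0.0592 in p2 Smart-seq2 nuclei without the 6 IDs, and 0.58, 0.19 and 0.37 in deeper p1 and p2 Smart-seq2 and p1 Smart-seq3 nuclei.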
